A study of Mus musculus with 24 samples.

Results

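The chemokine gene Cxcl12 and 5 other genes through which bone marrow stroma is known to hold blood stem and progenitor cells were followed across sorted skeletal cells of the young mouse. The set comprised Cxcl12, Kitl, Angpt1, Il7, Vcam1 and Lepr. They were taken by symbol from the table of protein-coding genes, where they are 6 of 22053 entries, and all 6 were present. RNA had been sequenced from 24 libraries in 6 groups of 4, all from male mice on postnatal day 10 whose genotype the labels give as WT. All cells carried CD200 and lacked CD45, Ter119, CD31, Thy1, 6C3 and CD105, a surface pattern used to sort skeletal stem and progenitor cells. Each group was also sorted on embigin (EMB), a cell surface glycoprotein.

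Vertebral cells formed 4 groups, by the 4 combinations of GFP+ or GFP- with EMB+ or EMB-, and long bone cells formed 2, EMB+ and EMB-. The series' design text describes the long bone cells and the vertebral GFP- cells as negative for Zic1-cre and the vertebral GFP+ cells as positive, so GFP marks descendants of cells that had expressed Zic1, which encodes a zinc finger transcription factor. The allele that carries GFP is not given in the sources used here, and long bone was compared with vertebral cells of both GFP states. Replicates are called biological in the titles, with no statement on separate animals, and the p-values measure the spread between libraries, which may be technical. For the 4 vertebral GFP- EMB+ libraries the titles read EMB- and GFP+, while the label of the sorted cells reads EMB+ and GFP-. Title and label thus disagree on both EMB and GFP, and the label was used for grouping.

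In the marrow, stromal and perivascular cells make CXCL12, which keeps blood stem cells in place through the receptor CXCR4, and stem cell factor, the product of Kitl, which sustains them through the receptor KIT. Interleukin 7 from the same stroma supports lymphoid progenitors, VCAM-1 is an adhesion molecule bound by the integrin of blood cells that ITGA4 forms with ITGB1, and angiopoietin 1 signals through TEK on endothelial and blood stem cells. The leptin receptor, LEPR, is used as a marker of adult marrow stroma that makes CXCL12 and stem cell factor.

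All levels below are FPKM, in which the fragments of a gene are divided by its length in kilobases and by the size of the library. They are thus per length, so levels of different genes can be set side by side. Differences are in log2(FPKM + 1), were tested with limma over 11767 genes, and are given with their standard error (SE) and with Benjamini-Hochberg adjusted p. A gene was called at an adjusted p of 0.05 or less. Fewer cells of a type and less RNA per cell cannot be told apart in such sorted pools.

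Cxcl12 (ENSMUSG00000061353) lies on the plus strand of chromosome 6, from 117168535 to 117181367 in GRCm38, and the table lists 4 transcripts for it. Its promoter is shown because Cxcl12 had the largest site difference of the tested members in 1 comparison and the highest level of the 6 genes in every group. The 250 bases before its start, chr6:117168285-117168534 on the plus strand in RefSeq's GRCm38.p6, hold 5 copies of the GC box, searched as GGGCGG and as its reverse complement CCGCCC, which are in capitals and of which the last pair overlap.

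Cxcl12: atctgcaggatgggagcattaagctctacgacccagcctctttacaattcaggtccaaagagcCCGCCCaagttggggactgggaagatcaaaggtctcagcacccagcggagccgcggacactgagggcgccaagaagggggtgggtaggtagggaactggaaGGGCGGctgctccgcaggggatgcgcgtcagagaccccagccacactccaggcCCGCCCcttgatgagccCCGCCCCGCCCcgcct

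The GC box was present in 32.7% of 32851 RefSeq promoter windows of that length. The window holds no TATA box (TATAAA or TTTATA, in 12.4% of windows) and no core hypoxia response letters (ACGTG or CACGT, in 16.6%). Its GC content was 64.4%, against a median of 52.4% over all windows. RefSeq windows were also matched for Kitl and Lepr but are not described, because that of Kitl and 1 of the 2 of Lepr lie mostly or wholly inside the gene as placed below. Those of Angpt1, Il7 and Vcam1 were not matched. These matches describe letters in the sequence only.

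The other members lie on chromosome 10 (Kitl, ENSMUSG00000019966, 100015630 to 100100413, plus strand), chromosome 15 (Angpt1, ENSMUSG00000022309, 42424727 to 42676977, minus strand), chromosome 3 (Il7, ENSMUSG00000040329, 7569994 to 7613760, and Vcam1, ENSMUSG00000027962, 116109949 to 116129688, both minus strand) and chromosome 4 (Lepr, ENSMUSG00000057722, 101717404 to 101815352, plus strand). The libraries do not mark strand, so reads of an antisense partner cannot be told apart where exons overlap. This touches 737 of 5205 exon bases of Angpt1 (Gm17473), 105 of 5664 of Il7 (Gm16685) and 61 of 8870 of Vcam1 (Gm43109).

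Across the libraries, summed FPKM ran from 382364 to 568495 and 10158 to 11204 genes reached an FPKM of 1, and the number of reads is unknown. Emb RNA was 30.1 to 56.5 FPKM in the EMB+ libraries, including 44.4 to 55.3 in the 4 with disagreeing labels, and at most 1.32 in the EMB- libraries. Zic1 RNA was at most 0.108 FPKM in the 4 with disagreeing labels. It was 1.51 to 2.39 in vertebral GFP+ EMB+ and 0.349 to 1.39 in vertebral GFP+ EMB- libraries. Ptprc (CD45) reached at most 1.80 FPKM, Thy1 at most 0.1 and Pecam1 (CD31) at most 4.05, while Cd200 group means were 97.8 to 298.0. Long bone EMB- replicate 4 stood apart from its group, with a lowest correlation over genes of 0.925 against 0.978 or more in the other groups. FPKM also carried a shift of the median gene between groups. The median gene was 0.32 and 0.30 higher on the log2 scale in EMB+ than in EMB- vertebral cells (GFP+ and GFP-), and -0.27 and -0.28 in vertebral GFP+ and GFP- EMB- cells against long bone. Median-ratio scaling, which divides each library by its typical ratio to the mean of 4841 well-expressed genes, brought these 4 medians to 0.01, -0.03, -0.02 and -0.05.

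Cxcl12 and Vcam1 were higher in long bone than in vertebral cells in all 4 site comparisons. Cxcl12 was 3.19 to 15.4 times as abundant in long bone and Vcam1 4.83 to 19.5 times, over the 4 comparisons of mean FPKM. Kitl means were 3.20 to 12.5 times as high in long bone, at low levels throughout. The ratios of Angpt1 and Lepr were below those of these 3 genes in each comparison, and neither was called in every one. Il7 was near the limit of what the table resolves.

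**Figure D1:**
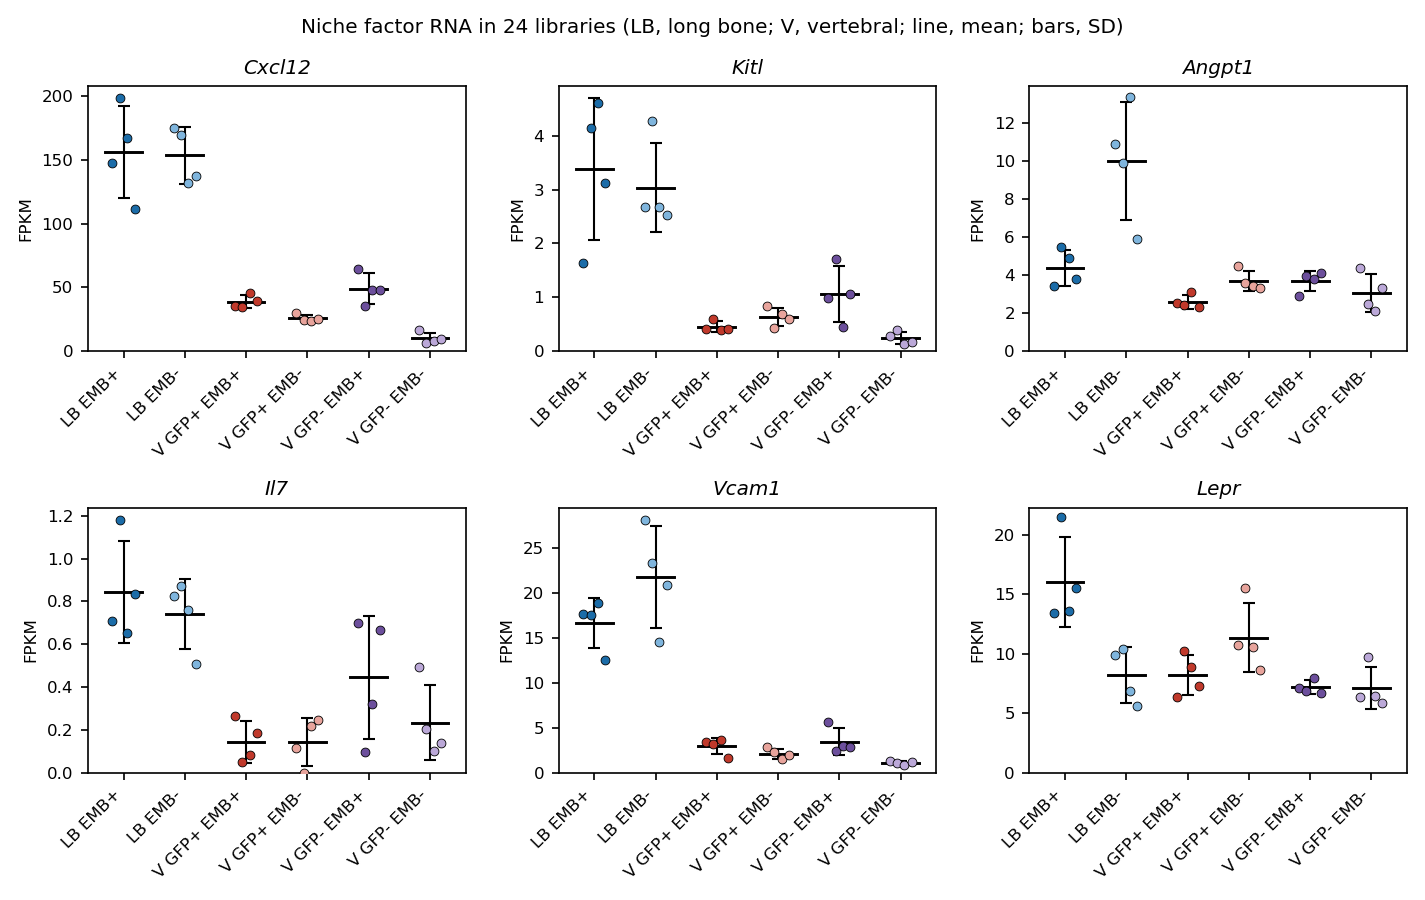
FPKM of each of the 6 genes (linear vertical axes that start at 0) in the 4 libraries of each group, with the mean as a line and the SD as bars. All 8 long bone libraries lie above all 16 vertebral libraries for Cxcl12 and Vcam1, and the highest Lepr and Angpt1 levels are in different long bone groups.

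Cxcl12, the chemokine, was the most abundant of the 6. Its level was 147.8, 198.3, 167.3 and 111.6 FPKM in long bone EMB+ replicates 1 to 4 and 174.8, 169.9, 132.0 and 137.1 in long bone EMB- replicates. In vertebral GFP+ cells it was 35.5, 34.6, 45.7 and 39.2 FPKM (EMB+) and 29.9, 24.5, 23.4 and 25.4 (EMB-). In vertebral GFP- cells it was 64.7, 35.2, 48.2 and 47.8 FPKM (EMB+) and 16.5, 6.22, 7.74 and 9.35 (EMB-). Long bone libraries were thus all high, at 112 to 198 FPKM with a median of 158, and vertebral libraries all low, at 6.22 to 64.7 with a median of 32.3. The 2 long bone groups overlapped, as did the vertebral EMB+ groups of both GFP states, and the vertebral GFP- EMB- libraries were the lowest of all. Among 21948 genes the median rank of Cxcl12, counted from the highest FPKM of a library, was 416 in long bone and 1812 in vertebral libraries.

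Vcam1, the adhesion molecule, showed the same order of sites at a lower level. It stood at 17.6, 17.5, 18.9 and 12.5 FPKM in long bone EMB+ and 28.1, 23.3, 14.5 and 20.9 in long bone EMB- cells. In vertebral GFP+ cells Vcam1 was 3.42, 3.22, 3.58 and 1.67 FPKM (EMB+) and 2.81, 2.25, 1.48 and 1.93 (EMB-), and in vertebral GFP- cells 5.66, 2.37, 2.93 and 2.80 (EMB+) and 1.34, 1.11, 0.822 and 1.18 (EMB-). No vertebral library reached the lowest long bone library. Its median rank was 3175 in long bone and 8741 in vertebral libraries. All 8 long bone libraries above all 16 vertebral ones was seen for these 2 genes and not for Angpt1, Lepr or Kitl. It was seen for 264 of 11767 tested genes (2.24%).

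Kitl, the gene of stem cell factor, was low everywhere. It was 1.63, 4.15, 4.6 and 3.13 FPKM in long bone EMB+ and 2.67, 4.27, 2.68 and 2.53 in long bone EMB- cells. Vertebral GFP+ cells had 0.412, 0.603, 0.398 and 0.405 FPKM (EMB+) and 0.835, 0.436, 0.681 and 0.591 (EMB-), and vertebral GFP- cells 0.994, 1.72, 0.441 and 1.07 (EMB+) and 0.285, 0.387, 0.123 and 0.176 (EMB-). Only 1 vertebral library, GFP- EMB+ replicate 2 at 1.72, lay above the lowest long bone library at 1.63. Kitl reached an FPKM of 1 in 10 libraries, among them all 8 of long bone, so it could pass the filter for testing (1 or more in at least 4 libraries) only by being high there. It is therefore left out of the counts of members that differed between sites, and its adjusted p-values for site are those of a fit with no filter (17614 genes).

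Il7, the lymphoid cytokine, reached an FPKM of 1 in 1 library only and was not tested. It was 0.709, 1.18, 0.651 and 0.835 FPKM in long bone EMB+ and 0.825, 0.871, 0.762 and 0.506 in long bone EMB- cells. Vertebral GFP+ cells had 0.265, 0.0509, 0.0812 and 0.184 (EMB+) and 0.113, 0, 0.218 and 0.245 (EMB-), where the 0 is as listed and is not marked as failed. Vertebral GFP- cells had 0.699, 0.0979, 0.323 and 0.665 (EMB+) and 0.492, 0.204, 0.102 and 0.138 (EMB-). No vertebral GFP+ library reached the lowest long bone library, while 2 vertebral GFP- EMB+ libraries did. With no filter the differences were -0.68 and -0.61 in vertebral GFP+ against long bone EMB+ and EMB- cells (adjusted p = 0.000677 and 0.000914) and -0.36 and -0.50 in vertebral GFP- cells (adjusted p = 0.0701 and 0.00469).

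Angpt1, the vascular ligand, had its highest level in 1 group. It was 10.9, 9.90, 13.4 and 5.90 FPKM in long bone EMB- against 3.41, 5.48, 4.88 and 3.82 in long bone EMB+ cells. In vertebral GFP+ cells it was 2.51, 2.41, 3.14 and 2.34 (EMB+) and 4.47, 3.57, 3.41 and 3.34 (EMB-), and in vertebral GFP- cells 2.91, 3.95, 3.80 and 4.09 (EMB+) and 4.37, 2.47, 2.13 and 3.35 (EMB-). All 4 long bone EMB- libraries were above the other 20, with replicate 4, the library that stood apart, closest to them. The long bone EMB+ libraries overlapped 3 of the 4 vertebral groups, all but GFP+ EMB+.

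Lepr, the leptin receptor gene, was instead highest in long bone EMB+ cells, at 13.4, 21.5, 13.6 and 15.5 FPKM, against 9.92, 10.4, 6.91 and 5.59 in long bone EMB- cells. Vertebral GFP+ cells had 6.38, 10.2, 8.91 and 7.31 (EMB+) and 10.7, 15.5, 10.6 and 8.66 (EMB-), and vertebral GFP- cells 7.15, 6.89, 8.0 and 6.74 (EMB+) and 6.38, 9.74, 6.43 and 5.85 (EMB-). Vertebral GFP+ EMB- was the only vertebral group to overlap long bone EMB+. Long bone EMB- cells, with Cxcl12 at 153 ± 22.0 FPKM (mean ± SD, n = 4), had a mean Lepr of 8.21 ± 2.34, close to the 8.20 ± 1.70 of vertebral GFP+ EMB+ cells, whose Cxcl12 was 38.8 ± 5.04.

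Ordered by mean level, Cxcl12 stepped down from long bone EMB+ and EMB- (156 and 153, adjusted p = 0.99) to vertebral GFP- EMB+ (48.9, adjusted p = 4.6e-07 against the group above), GFP+ EMB+ (38.8, 0.88), GFP+ EMB- (25.8, 0.027) and GFP- EMB- (9.94, 3.6e-05). For Vcam1 the single step between neighbours that passed the test was the one from long bone EMB+ to vertebral GFP- EMB+ cells (adjusted p = 9.7e-08). Kitl stepped from 3.38 and 3.04 FPKM in long bone to 1.05 in vertebral GFP- EMB+ cells, and no step among its vertebral groups passed the test. These neighbours were picked by the observed order of means, so their p-values describe that order and are not independent tests. Angpt1 had 1 such step, from long bone EMB- to long bone EMB+ (0.00019). Lepr also had 1, from long bone EMB+ to vertebral GFP+ EMB- (difference 0.46, adjusted p = 0.046), although these groups overlapped.

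Within the EMB+ sort, vertebral GFP+ libraries had lower levels than long bone libraries for Cxcl12, Vcam1, Lepr and Angpt1, which are 4 of the 4 members counted. Of all tested genes 12.9% were lower in this comparison and 8.66% higher. The differences were -1.96 for Cxcl12 (SE 0.21, adjusted p = 8.3e-08), -2.17 for Vcam1 (SE 0.21, 2.3e-08), -0.88 for Lepr (SE 0.19, 0.0012) and -0.57 for Angpt1 (SE 0.19, 0.031). In none of the 4 did the groups overlap, which was so for 28.1% of tested genes. Kitl differed by -1.53 (adjusted p = 6.55e-06 with no filter). The Angpt1 call was lost under median-ratio scaling as under quantile normalization (adjusted p = 0.053 in both), with a pseudocount of 5 (0.0632), and without long bone EMB+ replicate 2 (0.114) or 3 (0.0803) or vertebral GFP+ EMB+ replicate 1 (0.0649), 2 (0.0756) or 4 (0.0731).

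In the same EMB+ cells, vertebral GFP- libraries were lower than long bone libraries for 3 of 4 members, against 10.6% of all tested genes (8.49% were higher). This comparison shares the long bone EMB+ libraries with the one before. Cxcl12 differed by -1.66 (SE 0.21, adjusted p = 1.6e-06), Vcam1 by -2.03 (SE 0.21, 9.7e-08) and Lepr by -1.03 (SE 0.19, 0.00026). Angpt1 did not pass (-0.19, 95% interval -0.59 to 0.20, adjusted p = 0.57). The groups of these 3 did not overlap, as for 24.8% of tested genes. Kitl differed by -1.07 (adjusted p = 0.000543 with no filter), and its groups overlapped.

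Within the EMB- sort, Cxcl12 and Vcam1 again had the largest site differences on the log2(FPKM + 1) scale, which shrinks those of low genes. Vertebral GFP+ cells differed from long bone by -2.52 for Cxcl12 (SE 0.21, adjusted p = 2.9e-10), -2.85 for Vcam1 (SE 0.21, 4.5e-11) and -1.19 for Angpt1 (SE 0.19, 1.3e-05). That is 3 of 4 members lower, where 40.4% of all tested genes were lower as deposited and 23.8% after median-ratio scaling (7.4% and 17.1% higher). No groups of these 3 overlapped, as for 36.8% of tested genes. Kitl differed by -1.29 (adjusted p = 2.25e-05 with no filter). Lepr went the other way without passing (0.43, 95% interval 0.04 to 0.83, adjusted p = 0.066). It passed as higher in vertebral cells with median-ratio scaling (0.71, 0.00822), with quantiles equalised (0.83, 0.000626), and without long bone EMB- replicate 1 (0.0404) or 2 (0.0294) or vertebral GFP+ EMB- replicate 4 (0.0341).

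Vertebral GFP- against long bone EMB- cells gave the largest Cxcl12 difference, -3.89 (SE 0.21, adjusted p = 1.9e-13), which placed it at the 0.051 percentile of all tested genes. Mean levels were 9.94 ± 4.53 and 153 ± 22.0 FPKM (SD, n = 4). Vcam1 differed by -3.40 (SE 0.21, 3.6e-12) and Angpt1 by -1.42 (SE 0.19, 1.6e-06), and none of these 3 overlapped between the groups, as for 35.3% of tested genes. Kitl differed by -1.68 (adjusted p = 1.09e-06 with no filter). Here too 3 of 4 members were lower, against 40.2% of tested genes as deposited and 22.6% after median-ratio scaling (8.05% and 15.9% higher). This comparison shares the long bone EMB- libraries with the one before, so it is not an independent repeat. Lepr did not pass (-0.17, adjusted p = 0.48), and its sign changed with median-ratio scaling (0.08). Without long bone EMB- replicate 4 the Cxcl12 and Vcam1 differences were -3.94 and -3.40.

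**Figure D2:**
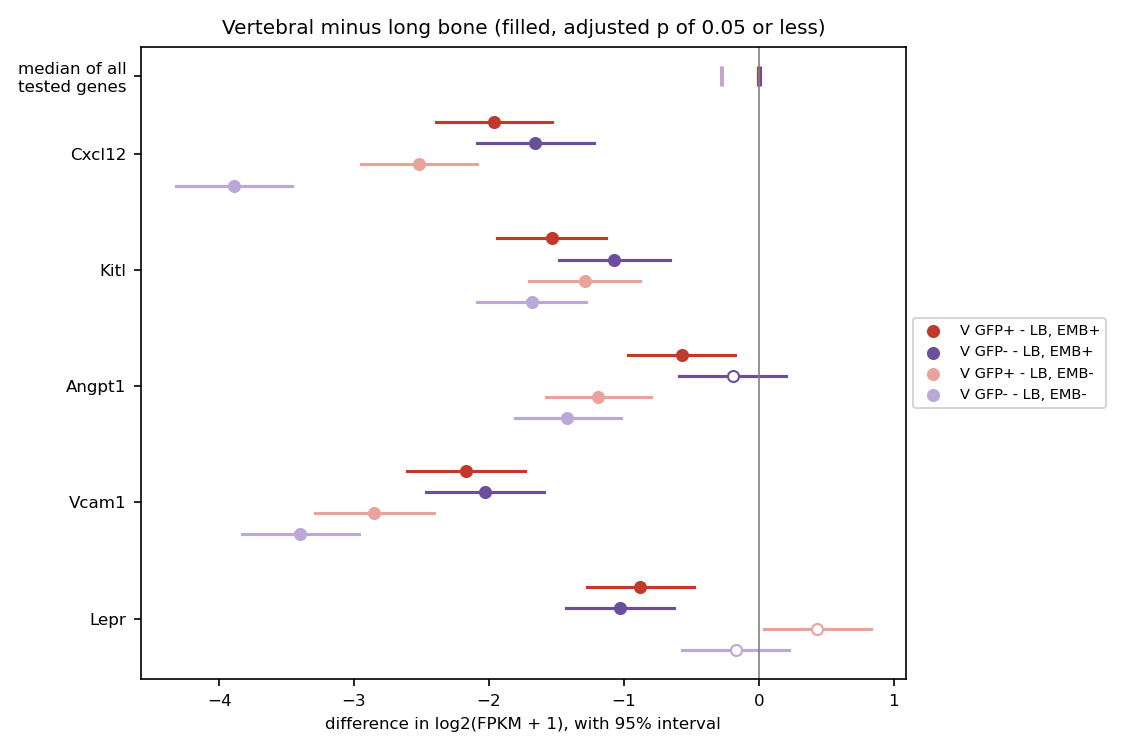
Difference in log2(FPKM + 1) between vertebral and long bone cells for the 5 tested genes (points, with 95% intervals as lines), filled where the adjusted p is 0.05 or less, with the median of all 11767 tested genes at the top. Cxcl12, Vcam1 and Kitl lie left of 0 in all 4 comparisons, from -1.07 to -3.89, while Lepr lies right of 0 in GFP+ EMB- cells. Kitl is drawn from the fit of the filtered genes, which it entered only through its long bone levels.

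Several marker lists moved with site. The summed FPKM of 8 osteoblast genes was 12300 to 32200 in long bone and 4200 to 8630 in vertebral libraries, that of 5 mural cell genes 17.4 to 50.8 and 3.99 to 16.8, and that of 9 chondrocyte genes 28000 to 40800 and 50200 to 59800. Megakaryocyte and platelet genes summed to 13.0 to 131 FPKM in long bone, and to at most 12.7 in vertebral libraries other than GFP- EMB- replicate 4 (49.9). Erythroid genes were high in long bone EMB- (20200 to 42600) and vertebral GFP- EMB- cells (7300 to 12400), against 122 to 979 elsewhere, and skeletal muscle genes were high in long bone EMB- (350 to 822 against at most 70.3). Tendon, ligament and fibroblast genes were lower for 8 of 9 in both vertebral EMB+ comparisons (medians -1.64 in GFP+ and -1.24 in GFP- cells), with sums of 3200 to 4080 FPKM in long bone EMB+ and 2330 to 2950 in vertebral EMB+ libraries. In the EMB- comparisons 3 and 5 of the 9 were lower and 2 and 1 higher. Leukocyte and macrophage genes summed to 16.9 to 113 FPKM in long bone, 5.73 to 28.4 in vertebral GFP+ and 16.2 to 528 in vertebral GFP- libraries. Endothelial genes, of which 1 of 8 was tested, summed to 1.13 to 7.59 FPKM in long bone and 0.853 to 15.4 in vertebral libraries, and Cdh5 (VE-cadherin) averaged at most 0.197 in any group. The part of these cells in the site differences was not tested.

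**Figure D3:**
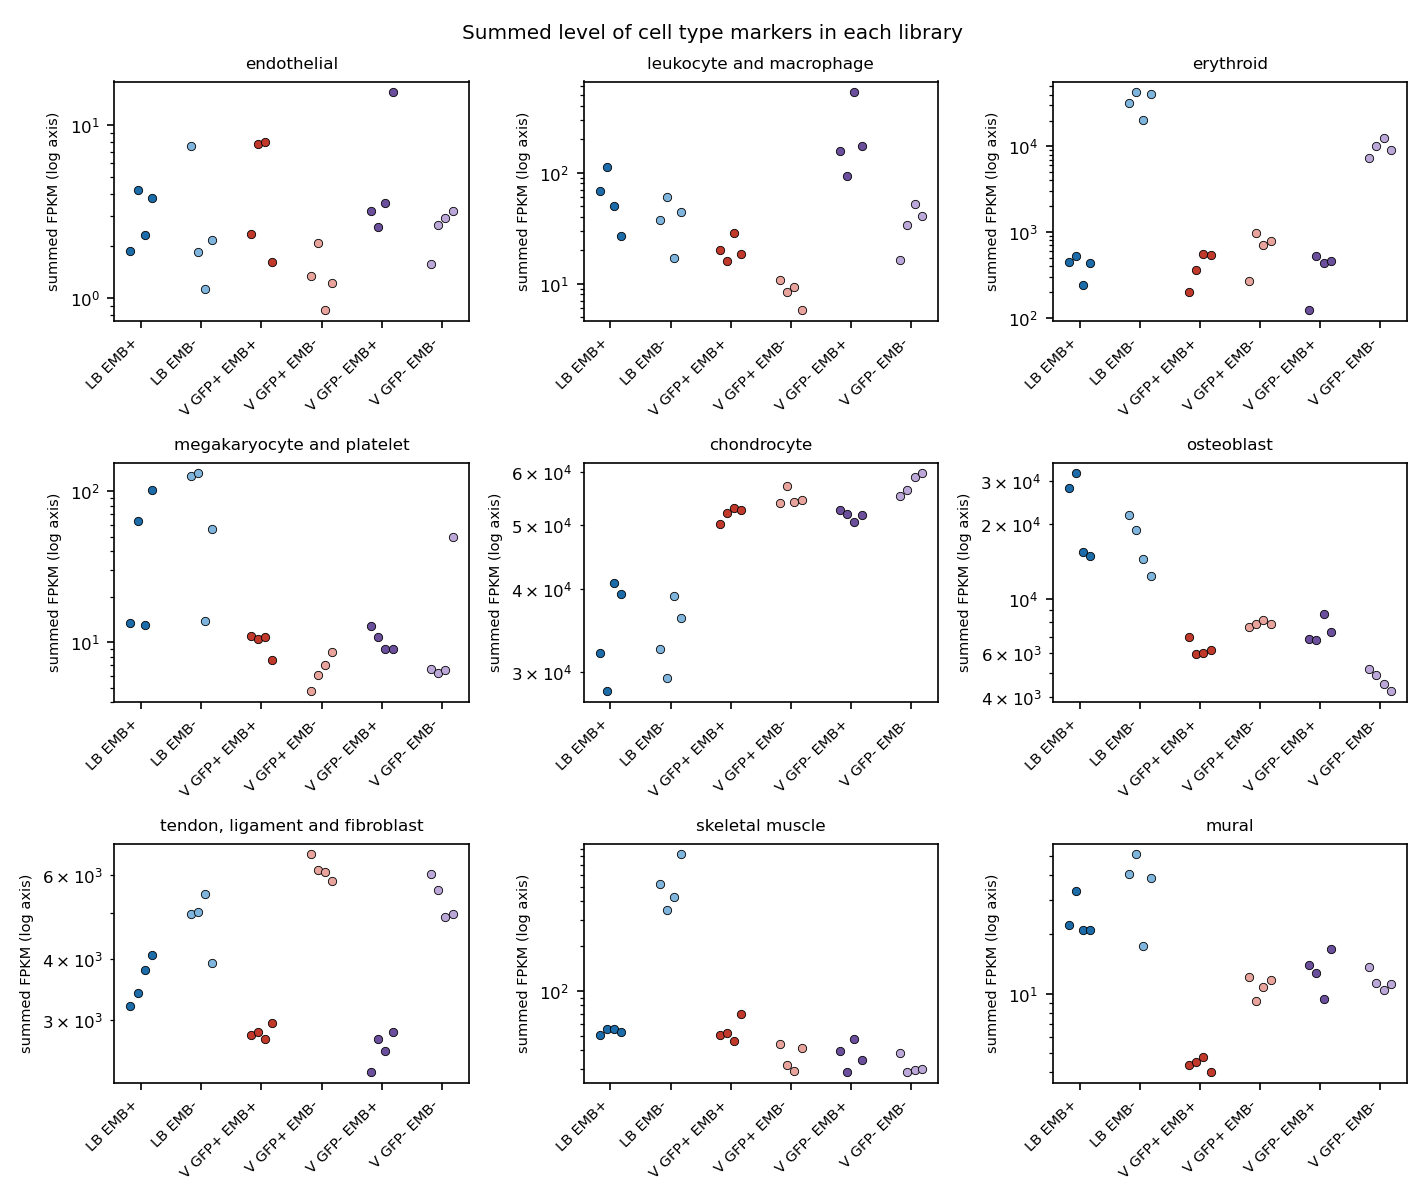
Summed FPKM of 9 lists of cell type marker genes in each library, on log axes that differ between panels. Osteoblast and mural sums are higher in long bone, the chondrocyte sum is higher in vertebral libraries, and the leukocyte sum is highest in vertebral GFP- EMB+ cells.

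The EMB sort split Cxcl12 most in vertebral GFP- cells. There, EMB+ libraries had 4.92 times the mean Cxcl12 of EMB- libraries (48.9 ± 12.1 against 9.94 ± 4.53 FPKM, n = 4), a difference of 2.24 (SE 0.21, adjusted p = 3.3e-09). Vcam1 was higher by 1.02 (SE 0.21, 0.00031) and Kitl by 0.69 (SE 0.20, 0.0052), and the groups overlapped for none of these 3, as for 51.5% of tested genes. So 3 of 5 members were higher, where 41.7% of all tested genes were higher and 10.6% lower as deposited, and 15.3% and 19.7% after median-ratio scaling. Under that scaling the differences were 1.86 for Cxcl12, 0.76 for Vcam1 and 0.57 for Kitl (adjusted p = 1.36e-07, 0.00618 and 0.0281). Angpt1 (0.23, adjusted p = 0.33) and Lepr (0.04, 0.88) did not pass, and their signs changed with that scaling (-0.09 and -0.32).

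Several marker lists moved with this split. Of 8 osteoblast genes 6 were higher in EMB+ cells and 0 lower (median 1.56), with sums of 6800 to 8630 FPKM against 4200 to 5190. Of 9 chondrocyte genes 8 were higher and 1 lower (median 1.27), all 9 tendon, ligament and fibroblast genes were lower (-1.62) and so were all 9 erythroid genes (-4.69). Of 7 tested leukocyte and macrophage genes 5 were higher and 0 lower (median 1.14). The 10 genes summed to 93.3 to 528 FPKM in vertebral GFP- EMB+ libraries and to 16.2 to 52.1 in GFP- EMB- libraries. Mpo, a granule enzyme of myeloid progenitors, was the most abundant (mean 131), while Adgre1 (F4/80) averaged 0.0929. The library with the highest leukocyte sum, replicate 3 (528), had the lowest Kitl of its group (0.441) and a Vcam1 of 2.93. The highest Cxcl12 and Vcam1 were in replicate 1. Replicate 2, with the lowest leukocyte sum of the group (93.3), had its lowest Cxcl12 (35.2) and Vcam1 (2.37). The highest Kitl (1.72) was also in replicate 2. The part of these cells in the differences was not tested.

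In vertebral GFP+ cells the Cxcl12 split was smaller. Cxcl12 was 1.5 times as abundant in EMB+ as in EMB- cells (38.8 ± 5.04 against 25.8 ± 2.88 FPKM), a difference of 0.57 (SE 0.21, adjusted p = 0.027) beside a median of 0.32 over all tested genes. It was the 1 member of 5 called, where 50% of tested genes were called (42.1% higher and 7.85% lower as deposited, 12.9% and 14.7% after median-ratio scaling). The call was lost with median-ratio scaling (0.19, adjusted p = 0.581), quantile normalization (0.22, 0.527) and no filter (0.0513). It was also lost without GFP+ EMB- replicate 2 (0.0582), 3 (0.0674) or 4 (0.052) or GFP+ EMB+ replicate 3 (0.0818) or 4 (0.0503). The call held in 10 of 18 alternatives, among them the replicate block (0.000506). The lowest correlation between same-numbered libraries of these groups was 0.097, just under the 0.1 set for pairing. Both groups did pair with vertebral GFP- EMB- cells (0.2 to 0.248 for GFP+ EMB+ and 0.13 to 0.292 for GFP+ EMB-). Kitl (-0.17, adjusted p = 0.50) and Vcam1 (0.34, 0.19) did not pass. Lepr (-0.42, 0.074) and Angpt1 (-0.38, 0.096) missed the threshold as deposited, and both passed as lower in EMB+ cells with median-ratio scaling (-0.77 and -0.68, adjusted p = 0.00664 and 0.013) and quantile normalization (-0.77 and -0.64, 0.00202 and 0.00809). Both also passed with the compared groups fitted alone (0.0406 and 0.0248), with library weights (0.0238 and 0.0423) and with the replicate block (0.00578 and 0.0249). The groups did not overlap for Cxcl12 and Angpt1, as for 50.6% of tested genes. In the same comparison all 9 tendon, ligament and fibroblast genes were lower in EMB+ cells (median -2.60), with sums of 2730 to 2950 FPKM against 5820 to 6610. Of 9 chondrocyte genes 8 were higher and 1 lower (median 1.21), and of 8 osteoblast genes 4 were higher and 2 lower (0.61). The part of these cells was not tested.

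In long bone cells Cxcl12 did not differ detectably with EMB (0.01, 95% interval -0.42 to 0.44, adjusted p = 0.99), nor did Kitl (0.08, 95% interval -0.33 to 0.49, 0.79) or Vcam1 (-0.34, -0.78 to 0.09, 0.23). Vcam1 passed as lower in EMB+ cells in 1 of 18 alternatives, library weights (-0.64, adjusted p = 0.0112), where 5290 of 11767 genes were called. Lepr was 1.95 times as abundant in EMB+ cells, with a difference of 0.90 (SE 0.19, adjusted p = 7e-04). Angpt1 was 2.28 times as abundant in EMB- cells, with a difference of -1.0 (SE 0.19, adjusted p = 0.00019). These were 1 of 5 members higher and 1 lower, where 17.5% of tested genes were higher and 16% lower, and neither gene's groups overlapped, as for 24.7% of tested genes. Without long bone EMB- replicate 4 the differences were 0.75 and -1.21. Erythroid and muscle genes, given above, were high in the same EMB- libraries. Of 9 tendon, ligament and fibroblast genes 6 were lower in EMB+ cells (median -1.08), while 6 of 9 chondrocyte genes (0.49) and 4 of 8 osteoblast genes (0.71, with 1 lower) were higher. The part of these cells was not tested.

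**Figure D4:**
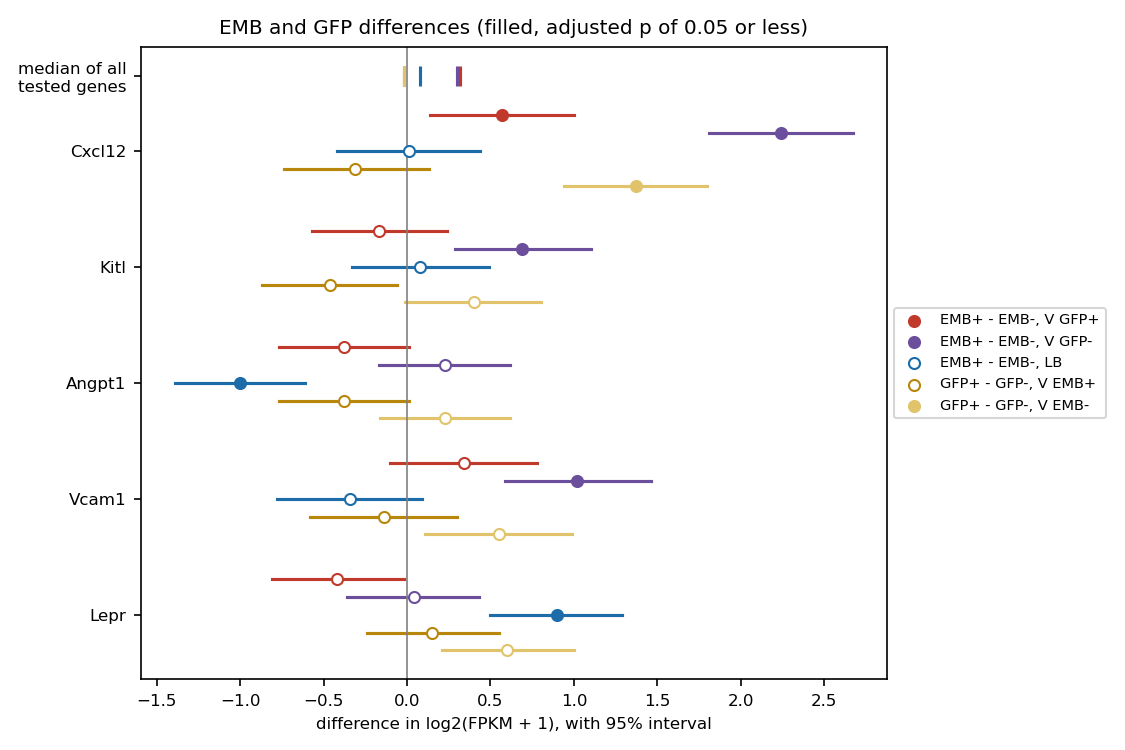
Differences in log2(FPKM + 1) between EMB+ and EMB- cells in 3 settings and between GFP+ and GFP- vertebral cells in 2, with 95% intervals, filled where the adjusted p is 0.05 or less. The EMB difference of Cxcl12 runs from 0.01 in long bone to 2.24 in vertebral GFP- cells, while those of Lepr and Angpt1 pass the test in long bone only, as deposited.

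The EMB difference itself was compared between settings. That of Cxcl12 was smaller in vertebral GFP+ than in vertebral GFP- cells by -1.67 (SE 0.30, adjusted p = 0.00054), where 4.87% of tested genes passed. No other member passed in the main fit of all 6 groups (Kitl -0.86, adjusted p = 0.086). Kitl passed with the replicate block (adjusted p = 0.00991), the compared groups fitted alone (0.0151), library weights (0.0283) and a pseudocount of 0.1 (0.00863). It also passed without vertebral GFP- EMB+ replicate 3 (0.0299). Between vertebral GFP- and long bone cells the EMB difference of 4 of 5 members differed, where 29.8% of tested genes did, namely Cxcl12 (2.23, SE 0.30, 4.3e-06), Vcam1 (1.37, SE 0.30, 0.0013), Angpt1 (1.22, SE 0.27, 0.0013) and Lepr (-0.86, SE 0.27, 0.019). The last was lost without long bone EMB+ replicate 2 (0.0516) or vertebral GFP- EMB- replicate 2 (0.0509). Between vertebral GFP+ and long bone cells Lepr alone passed (-1.31, SE 0.27, 0.00054), where 30.5% of tested genes did, and Cxcl12 did not (0.56, adjusted p = 0.16). Any 2 of these 3 comparisons share the libraries of 1 setting, so they are not independent.

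Cxcl12 also differed with GFP state in EMB- cells. GFP+ EMB- cells had 2.59 times the mean Cxcl12 of GFP- EMB- cells, a difference of 1.37 (SE 0.21, adjusted p = 3.6e-05), and the groups did not overlap, as for 16.8% of tested genes. It was the 1 member of 5 called, where 8.47% of tested genes were called and 2.25% were higher. Lepr (0.60, adjusted p = 0.050, just above the threshold before rounding), Vcam1 (0.55, 0.13), Kitl (0.40, 0.30) and Angpt1 (0.23, 0.63) did not pass. The groups of Vcam1 and Kitl did not overlap either, while those of Lepr and Angpt1 did. With the replicate number as a block, since the numbers paired these libraries, Cxcl12 (adjusted p = 1.92e-05), Lepr (0.000626) and Vcam1 (0.0142) passed. The erythroid sum was 266 to 979 FPKM in the GFP+ and 7300 to 12400 in the GFP- libraries. Of 8 osteoblast genes 6 were higher in GFP+ cells and 0 lower (median 0.92), with sums of 7680 to 8190 FPKM against 4200 to 5190. Of 9 tendon, ligament and fibroblast genes 4 were higher and 0 lower (median 0.36), and 2 of 7 leukocyte and macrophage genes were lower and 0 higher (-1.29). The part of these cells was not tested.

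In EMB+ cells no member differed with GFP, by limma, where 2.1% of tested genes did. The Cxcl12 difference was -0.31 (95% interval -0.74 to 0.13, adjusted p = 0.88) and that of Vcam1 -0.14 (-0.58 to 0.30, 0.99). At an unadjusted p of 0.05 or less 1 member would pass, Kitl (-0.46, unadjusted p = 0.027, adjusted p = 0.44), and the count was also 0 with the replicate block.

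Receptors and modifiers of these factors were largely at low level, and 10 of 16 were tested. The receptors of Kitl and Il7 had group means of at most 0.950 FPKM (Kit) and 0.0737 (Il7r), and Tek, the Angpt1 receptor, at most 0.317. In vertebral GFP- against long bone EMB- cells 6 were lower and 1 higher, where 40.2% and 8.05% of all tested genes were, with a list median of -0.43 beside -0.28 over all tested genes. The higher gene was Socs3, a feedback inhibitor of STAT3 signalling that leptin can induce, at 453.0 ± 32.0 against 196.0 ± 12.9 FPKM (1.20, adjusted p = 3.2e-09). Among the lower genes were Stat3 (-0.50, 6.7e-05), Cxcr4 (-0.88, 0.00013) and Il2rg, a shared subunit of the interleukin 7 receptor (-1.09, 0.0003). Erythroid genes summed to 7300 to 12400 FPKM in these vertebral and 20200 to 42600 in these long bone libraries. The part of blood cells in the receptor levels was not tested.

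In long bone, 2 of the 10 were higher and 3 lower in EMB+ than in EMB- cells, where 17.5% and 16% of all tested genes were. Ackr3, a scavenging receptor of CXCL12, was at 10.3 ± 1.67 FPKM in EMB+ and 24.7 ± 2.36 in EMB- cells (-1.20, adjusted p = 3.1e-08). Cxcr4, the signalling receptor, was at 0.131 ± 0.166 and 2.46 ± 1.05 (-1.58, 4.4e-08), and Itga4, which encodes the VCAM-1 binding integrin chain, at 0.194 ± 0.115 and 4.23 ± 2.80 (-1.99, 1.8e-07). Il2rg went the other way (1.06, 0.00062). Erythroid genes summed to 244 to 529 FPKM in long bone EMB+ and 20200 to 42600 in long bone EMB- libraries. Leukocyte and macrophage genes summed to 26.8 to 113 and 16.9 to 59.7. The part of blood cells in these receptor differences was not tested. Ackr3 was also lower in EMB+ than in EMB- vertebral cells, by -1.24 in GFP+ and -1.42 in GFP- cells (1.8e-08 and 1.2e-09), where Cxcr4 did not pass (-0.02 and -0.24, 0.94 and 0.24).

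Other stromal factors that act on blood cells, 19 of 25 of them tested, were also more often lower than higher in vertebral cells. In vertebral GFP+ against long bone EMB+ cells 11 were lower and 2 higher, where 12.9% and 8.66% of all tested genes were, with a median of -0.68 beside -0.01 over all tested genes. The smallest p-values were those of Ptn, a heparin-binding growth factor (9.51 ± 1.03 against 49.2 ± 9.61 FPKM, -2.24, adjusted p = 2.8e-09), Bmp4 (-1.88, 4.9e-09) and Dlk1 (-1.81, 6.9e-09), and in the other direction that of Angptl2 (402.0 ± 43.3 against 135.0 ± 28.5 FPKM, 1.59, 4.6e-09). In EMB- cells 12 were lower and 0 higher in vertebral GFP+, and 14 and 0 in vertebral GFP- cells, with medians of -0.60 and -0.91. Of all tested genes 40.4% and 40.2% were lower and 7.4% and 8.05% higher in these comparisons, with medians of -0.27 and -0.28. The 4 with the smallest p in the latter were Angptl4 (5.52 ± 0.917 against 38.2 ± 6.92 FPKM, -2.58, 7.6e-13), Bmp4 (-2.90, 7.8e-13), Igf1 (-2.48, 8.6e-12) and Spp1, which encodes osteopontin (-2.76, 4.2e-11). In vertebral GFP- against long bone EMB+ cells 11 were lower and 1 higher, where 10.6% and 8.49% of all tested genes were.

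Genes used to mark marrow stroma and CXCL12-abundant reticular cells, 24 of 25 of them tested, changed in both directions. In vertebral against long bone cells 14 were lower and 4 higher in GFP+ EMB+, 14 and 4 in GFP- EMB+, 12 and 5 in GFP+ EMB- and 14 and 3 in GFP- EMB- cells, with medians of -0.57, -0.50, -0.57 and -0.61. Over all tested genes, in the same order, 12.9%, 10.6%, 40.4% and 40.2% were lower and 8.66%, 8.49%, 7.4% and 8.05% higher, with medians of -0.01, 0.01, -0.27 and -0.28. Lpl, the lipoprotein lipase gene, was at 18.5 ± 1.67 FPKM in the EMB+ and 27.2 ± 7.32 in the EMB- long bone group and had vertebral means of 2.43 to 6.69. Its differences ran from -1.35 to -3.02 (adjusted p = 3e-05 and 3e-11), and Esm1, which encodes endocan, ran from -1.21 to -2.42 (2.5e-05 and 1.6e-10). Ebf1, a transcription factor of this stroma and of B cells, was lower in vertebral GFP- EMB- cells (1.66 ± 0.0907 against 11.4 ± 1.92 FPKM, -2.21, 8.9e-12) but higher in both vertebral EMB+ groups (0.63 and 0.49, 0.0019 and 0.017).

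Other genes of that list followed the EMB sort within vertebrae. Gas6, the ligand of TAM receptors, was at 11 ± 0.862 FPKM in vertebral GFP+ EMB+ against 60.5 ± 4.29 in GFP+ EMB- cells, and at 48.3 ± 7.02 and 58.8 ± 5.2 in long bone EMB+ and EMB- cells. Grem1, a BMP antagonist, was at 2.16 ± 0.632 and 31.9 ± 2.41 FPKM in the same vertebral groups. Chrdl1, another BMP antagonist, had its highest means in vertebral GFP+ EMB+ (60.6 ± 9.46) and GFP- EMB+ cells (46.8 ± 4.36), against at most 13.7 elsewhere.

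**Figure D5:**
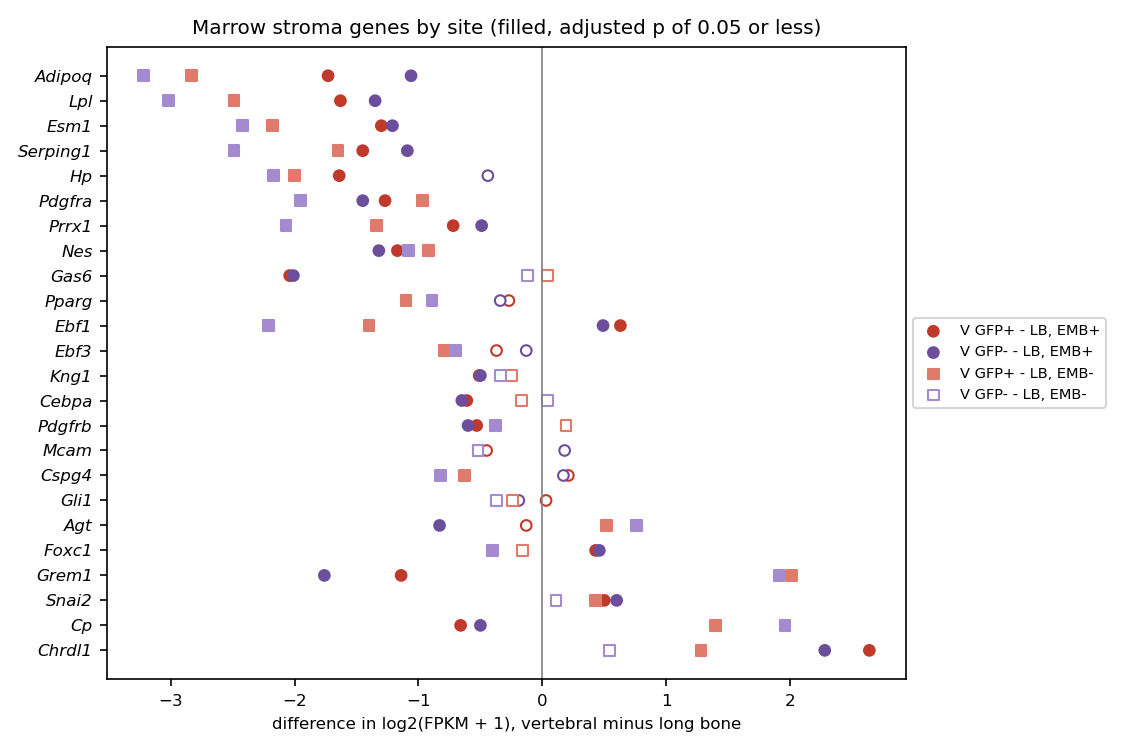
Difference in log2(FPKM + 1) between vertebral and long bone cells for the 24 tested marrow stroma genes in 4 comparisons, filled where the adjusted p is 0.05 or less. Adipoq, Lpl, Esm1 and Serping1 lie left of 0 in all 4, while Chrdl1 lies right of 0 and Ebf1, Grem1 and Cp change side with the EMB sort.

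The genes whose log2 level was most like that of each member over the 24 libraries are given as a description. For Cxcl12 they were Rerg (Pearson r 0.96), Angptl4 (0.959) and Ackr4 (0.955), an atypical chemokine receptor gene. For Vcam1 they were Esm1 (0.967), Lpl (0.964) and Kcne4 (0.961), and for Kitl Sox11 (0.934), Cmtm3 (0.924) and Vcam1 (0.902). Angpt1 was most like Cd248 (0.901), which encodes endosialin, Prlr (0.88) and Olfml2a (0.878). The values for Lepr were lower, with Ano1 (0.856), Pdgfrb (0.829) and Ust (0.82). The libraries fall into 6 groups and 2 sites, so these coefficients mostly follow the group means.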

How the data were processed

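Per the labels' protocols, libraries were made with SMART-Seq v4 and Nextera XT kits, which do not mark strand. Build GRCm38 and the tools STAR 2.5.2, Cufflinks 2.1.1 and bcl2fastq 2.19 are listed, per the submitters' processing notes. The authors deposited FPKM per gene and library in a table of protein-coding genes, and no other filter is given in the sources used here. Of 22053 entries, 46 that repeated an identifier, 56 that repeated a symbol and 3 with a failed value were left out, which kept 21948.

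From the deposited FPKM, log2(FPKM + 1) was computed, and the 11767 genes that reached an FPKM of 1 in at least 4 of 24 libraries were fitted in limma 3.58.1 (R 4.3.3), with a trend and robust moderation and 18 residual degrees of freedom over the 6 groups. Two-sided tests were adjusted by Benjamini-Hochberg in each of 9 comparisons and in 3 tests of a difference between differences, with a threshold of 0.05. Other pairs of groups that were neighbours in a member's order of means were tested in the same fit and adjusted likewise. Differences on this scale understate changes of low genes. The fit was tested on simulated data. Of 12 gene lists, 3 give context and 9 mark cell types.

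Members, lists and tests were chosen with earlier results of these data known. Named genes are the members, the 3 genes most correlated with each, and up to 4 genes per context list with the smallest adjusted p in a comparison described. Kit, Il7r and Tek as receptors, Adipoq, Serping1 and Cp in a plot and the marker genes were chosen after their values were seen, as were the further comparisons in which a gene's level is given. As alternatives, the pseudocount was set to 0.1 or 5, the filter was dropped (17614 genes) or raised to an FPKM of 5 (8056 genes), libraries were weighted, quantile-normalized or scaled by median ratio, a replicate block was added, the compared groups were fitted alone, and the libraries with disagreeing labels or each single library were left out.

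Numbers in the titles were taken to pair groups where the correlation of deviations from the group mean exceeded 0.1 in every same-numbered pair of libraries. In vertebrae it did so between the GFP states of EMB+ cells (0.169 to 0.337) and of EMB- cells (0.13 to 0.292) and between the EMB states of GFP- cells (0.135 to 0.236). Between the EMB states of GFP+ cells it was 0.097 to 0.279. Same-numbered vertebral libraries have neighbouring title codes. What a number stands for is not given in the sources used here. Promoter sequences are from RefSeq (GRCm38.p6).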

Additional observations from a re-analysis of the deposited data

Results flagged for a closer look

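In 3 of 36 sets of 4 libraries (6 genes in 6 groups) a library stood far from its group by Dixon's test, which chance does in about 1 of 20 sets. These were Kitl in long bone EMB- replicate 2 (4.27 FPKM, the others at 2.53 to 2.68), Kitl in vertebral GFP+ EMB+ replicate 2 (0.603, the others at 0.398 to 0.412) and Lepr in vertebral GFP- EMB- replicate 2 (9.74, the others at 5.85 to 6.43).

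In 6 tests the difference between EMB+ and EMB- cells itself differed between settings, on the log2 scale and by limma. That of Cxcl12 differed by -1.67 between vertebral GFP+ and GFP- cells and by 2.23 between vertebral GFP- and long bone cells. Between vertebral GFP- and long bone cells Angpt1 differed by 1.22, Vcam1 by 1.37 and Lepr by -0.86, and between vertebral GFP+ and long bone cells Lepr differed by -1.31. These comparisons share libraries and are not independent. Of all tested genes 4.87% passed for vertebral GFP+ against GFP-, 29.8% for GFP- against long bone and 30.5% for GFP+ against long bone cells.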

How the results depend on the processing

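No tested member's called difference changed sign under any alternative. In all 4 site comparisons Cxcl12 and Vcam1 remained called as lower in vertebral cells, and Cxcl12 remained called in vertebral GFP- cells between EMB+ and EMB- and in EMB- cells between GFP+ and GFP-. Counts here are of all 5 tested members, Kitl included. Those that moved by over 1.5 times lay in 4 tests that call 1 member as reported. For EMB in vertebral GFP+ cells the count was 3 with the compared groups fitted alone and with library weights. It was 2 with median-ratio scaling and with quantile normalization, and 0 with no filter. All genes called were, in the same order, 6904, 7226, 3248 and 3329 of 11767 and 5799 of 17614. For GFP in EMB- cells the count was 3, 2, 4, 3 and 2 with the compared groups fitted alone, library weights, a pseudocount of 0.1, quantile normalization and the stricter filter. All genes called were, in the same order, 1465, 1672, 1116 and 1166 of 11767 and 777 of 8056. For the EMB difference of vertebral GFP+ against GFP- cells the count was 2 with the compared groups fitted alone, library weights and a pseudocount of 0.1. Kitl was added there (adjusted p = 0.0151, 0.0283 and 0.00863), where 1150, 1224 and 653 of 11767 genes were called. For the EMB difference of vertebral GFP+ against long bone cells it was 4 with library weights and 2 with a pseudocount of 5. There 4840 and 3674 of 11767 genes were called. The causes were not tested.

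With a replicate block the counts were 3 for EMB in vertebral GFP+ cells, 3 for GFP in EMB- cells and 2 for the EMB difference of GFP+ against GFP- cells. Of 11767 genes 7458, 2031 and 1850 were called in these fits. Lepr and Angpt1 were added in the first (adjusted p = 0.00578 and 0.0249) and Kitl in the last (0.00991). The numbers did not pair long bone EMB- with any vertebral group. For GFP+ EMB+ with GFP+ EMB- cells the lowest correlation, 0.097, was just under the limit of 0.1. Both of these groups paired with vertebral GFP- EMB- cells. In long bone the block used neighbouring title codes, chosen after seeing the data, and the count stayed at 2. The block changed none of the other 4 counts for which it was run. Those for site in EMB- cells include Kitl, which passed the filter only through its long bone levels. The EMB+ site comparisons and the EMB differences against long bone were not run with a block, because the titles give long bone EMB+ libraries no separate numbers.

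Leaving out each library gave counts of 0 to 2 for EMB in vertebral GFP+ cells, 1 to 2 for GFP in EMB- cells (Lepr added without GFP- EMB- replicate 2, adjusted p = 0.0175, or GFP+ EMB- replicate 4, 0.0296), 1 to 2 for the EMB difference of GFP+ against GFP- cells (Kitl added without GFP- EMB+ replicate 3, 0.0299), 1 to 2 for that of GFP+ against long bone cells (added without long bone EMB- replicate 3 or 4 or GFP+ EMB+ replicate 4) and 3 to 5 for that of GFP- against long bone cells (Kitl added without long bone EMB+ replicate 3, 0.0484, or GFP- EMB+ replicate 3, 0.0387). In the EMB comparison of vertebral GFP+ cells, Lepr passed without GFP+ EMB- replicate 4 (0.0398) or GFP+ EMB+ replicate 2 (0.0435). The other counts were 3 for EMB in vertebral GFP- cells, 2 in long bone and 0 for GFP in EMB+ cells. By site, with Kitl left out, Cxcl12 and Vcam1 stayed called in all 4 comparisons. Lepr stayed called in both EMB+ and Angpt1 in both EMB- comparisons. In vertebral GFP+ against long bone, calls of Angpt1 in EMB+ cells (adjusted p = 0.0221 to 0.114) and Lepr in EMB- cells (0.0294 to 0.256) changed with the library. FPKM hold no read counts, so the precision of Kitl and Il7, at or below an FPKM of 1 in most vertebral libraries, is unknown.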
